A study of Mus musculus with 15 samples.

Results

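The proteasome subunit genes were described here across the cell classes of the mouse striatum and across 3 treatment groups. Members were the rows of the count table whose symbol is Psma, Psmb, Psmc or Psmd followed by a number, pseudogenes left out. Of 39 rows that fit this pattern, 38 were kept out of 15932 genes. Psmc3ip was left out, since it encodes a protein that binds Psmc3 and is not itself a subunit. The 38 members comprise 8 genes of the alpha ring, 7 constitutive and 3 inducible genes of the beta ring, 6 ATPase genes and 14 non-ATPase genes of the regulatory particle.

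The proteasome is the protease that degrades proteins tagged with ubiquitin. Its 20S core is a barrel of alpha rings that gate the entry and beta rings that carry the proteolytic sites, and its 19S regulatory particle recognises, unfolds and threads the substrate into the core. Psmb5, Psmb6 and Psmb7 encode the constitutive catalytic subunits. In immune cells and after exposure to interferons these are replaced by Psmb8, Psmb9 and Psmb10, respectively, to form the immunoproteasome, which is known for making peptides for presentation on MHC class I. Psmd5, Psmd9 and Psmd10 encode chaperones that help to assemble the regulatory particle and are not part of the finished complex.

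Striatal cells came from 15 male C57BL/6J mice, an inbred strain with no genetic change, bought at 8 weeks of age and habituated for about 1 week. The placebo, haloperidol and olanzapine groups held 5 mice each. Haloperidol, a dopamine receptor blocker, was given by implanted pellet and olanzapine, an atypical antipsychotic, in food, for 28 to 29 days in all groups, so the route and the drug cannot be told apart, and the labels do not say how placebo was given. Tissue slices were triturated, depleted of dead cells and loaded at 500 cells per mouse onto a 10x Genomics Chromium chip (3' kit, version 2), 1 library per mouse.

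The 5265 cells analysed held 17879351 unique molecular identifiers (UMIs), each marking 1 captured transcript end. Each mouse contributed 70 to 1172 cells and 215990 to 4235427 UMIs, and 3 mice gave more than the 500 cells loaded. The library of placebo 5 stood apart: of its 514 deposited cells, 101 carried barcodes of placebo 2 and 110 carried barcodes of placebo 3. Those cells had fewer UMIs in placebo 5 in all 211 cases, and 101 and 109 of them, respectively, were given the same class in both mice. The other pairs of mice shared at most 2 barcodes. The 211 copies were taken out of placebo 5, which after the other filters kept 301 cells. The counts of called and of lower members, the named pairs and the summed levels per class were also computed with them kept. The other results below that concern placebo were not.

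The 7 cell classes are those deposited with the counts. Astrocytes (1566 cells), neurons (909), microglia (845) and neuroblasts (679) carried their own markers. The class named other (499 cells) was vascular by its markers, with summed levels of 9137 CPM (UMI counts of a class summed per mouse and scaled to a fixed library size) for 5 endothelial genes and 7729 CPM for 4 pericyte genes. The 2 oligodendroglial names went against the markers. The class labelled oligodendrocyte (422 cells) held 2954 CPM of 4 precursor markers and 1958 CPM of 6 myelin genes, whereas the class labelled olig precursor (345 cells) held 5.97 CPM and 67078 CPM. Both are therefore written as labelled.

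Proteasome transcripts took the largest share of RNA in neuroblasts, the migrating progenitors of neurons, and the smallest in astrocytes. The level summed over the 38 members was 7078 ± 762 CPM (SD, n = 14 mice) in neuroblasts. It was 6333 ± 574 CPM (n = 11) in the class labelled oligodendrocyte, which holds the precursor markers. The vascular class other reached 5722 ± 582 CPM (n = 12). Lower levels were found in neurons (4670 ± 631 CPM, n = 15), the class labelled olig precursor (4475 ± 764 CPM, n = 9), microglia (4320 ± 277 CPM, n = 13) and astrocytes (3767 ± 528 CPM, n = 15). These are levels relative to the UMIs of a class, with library sizes adjusted between mice, and not plain shares or amounts per cell. In single cells the median share was 0.682% of UMIs in neuroblasts, from a median of 17 UMIs per cell, and 0.350% in astrocytes, from a median of 7.

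The order was also compared within mice. The summed level was higher in neuroblasts than in astrocytes in 14 of 14 mice, by 1.60 to 1.99 times, and higher than in neurons in 14 of 14 mice, by 1.24 to 1.89 times. The class labelled oligodendrocyte exceeded the class labelled olig precursor in 8 of 8 mice, by 1.28 to 1.74 times. Neighbours in the order overlapped, at the lower end as well: in olanzapine 5 astrocytes, at 3875 CPM, lay above microglia (3800.1 CPM) and the class labelled olig precursor (3405 CPM). Neuroblasts exceeded the class labelled oligodendrocyte in 9 of 11 mice, at ratios of 0.908 to 1.24, and the SDs of neurons, the class labelled olig precursor and microglia overlapped one another. The classes were drawn from the expression of these same cells, so differences between classes are a description and were not tested. Summed levels of 4 cell cycle genes stood out in neuroblasts only, at 972 ± 480 CPM. They were 15.8 CPM in the class labelled oligodendrocyte, next in this order, 5.00 CPM in the vascular class and 49.9 CPM in neurons. Their part in the level of neuroblasts was not tested.

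**Figure D1:**
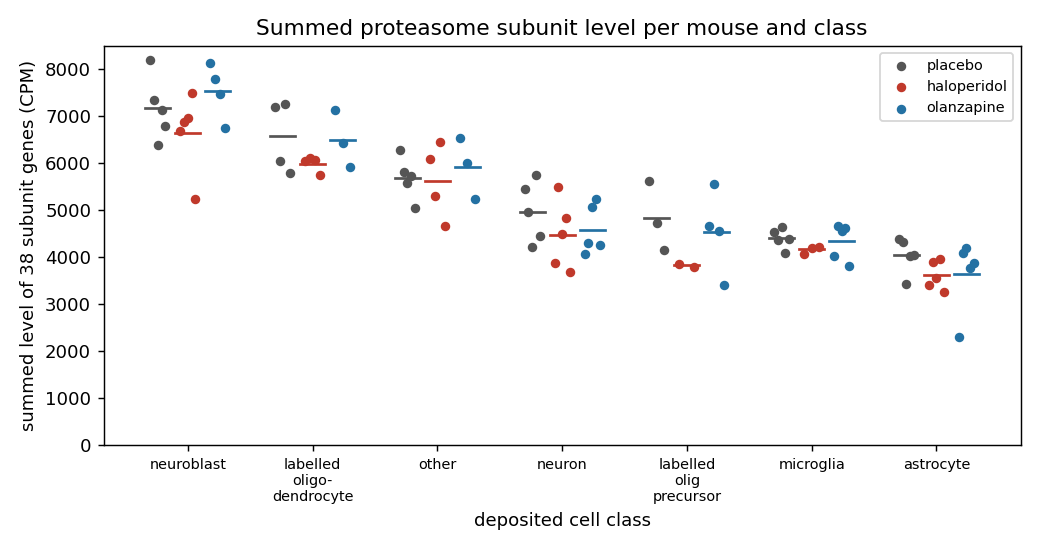
Summed level of the 38 subunit genes in CPM (y axis) in each mouse (points) by deposited class (x axis) and treatment group (colour), with bars at group means. Neuroblasts sit highest and astrocytes lowest, and the groups overlap within each class except haloperidol (2 mice) and placebo in the class labelled olig precursor.

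The 7 widely expressed alpha ring genes, Psma1 to Psma7, which form the gate of the core, were all highest in neuroblasts. Psma5 was at 280 ± 68.5 CPM there and 89.7 CPM in neurons, 3.13 times lower, and Psma6 was at 272 ± 73.2 CPM against 85.0 CPM in neurons. Psma6 also stood out in the vascular class, at 260 ± 46.1 CPM. Psma1 followed another order, with neurons second at 228 CPM and the class labelled olig precursor last at 94.9 ± 16.7 CPM. Psma8, an alpha subunit best known from the testis, had 32 UMIs in all cells, of which 17 were in the vascular class and 14 in microglia.

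Among the constitutive beta genes, Psmb2, Psmb4, Psmb6 and Psmb7 were highest in neuroblasts, whereas Psmb1 and Psmb3 were highest in neurons and Psmb5 in the class labelled oligodendrocyte. Psmb6, the caspase-like catalytic subunit, was at 449 ± 71.2 CPM in neuroblasts (lowest mouse 318, median 444, highest 623) and at 183 ± 52.8 CPM in neurons (75.1, 175 and 279). These ranges did not overlap. Psmb7, the trypsin-like catalytic subunit, was at 254 ± 50.3 CPM in neuroblasts, 215 ± 57.04 CPM in the class labelled oligodendrocyte, 163 ± 32.9 CPM in the class labelled olig precursor, 137 ± 45.9 CPM in neurons and 106 to 116 CPM in the other classes. Psmb5, the chymotrypsin-like catalytic subunit, was at 334 ± 84.6 CPM in the class labelled oligodendrocyte (180, 318 and 501), 208 ± 53.8 CPM in neuroblasts and 133 ± 43.7 CPM in microglia (59.1, 130 and 221). Psmb5, Psmb6 and Psmb7 lay lowest or within 1 SD of the lowest class in microglia. Psmb1 reached 430 CPM and Psmb3 310 ± 89.2 CPM in neurons.

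The inducible catalytic genes followed a different map. Psmb8, the counterpart of Psmb5, was at 286 ± 50.03 CPM in microglia (lowest mouse 196, median 302, highest 359) and 139 ± 81.3 CPM in the vascular class (42.3, 110 and 288). It did not exceed a mean of 8.04 CPM in the other 5 classes. A UMI of Psmb8 was found in 59.6% of 845 microglia, at a median depth of 3582 UMIs, in 23.2% of 499 vascular cells at 2226 UMIs, and in 0.766% of 1566 astrocytes at 2280 UMIs. In the class labelled olig precursor no UMI was found, and 3 counts over the class, the floor that a count of 0 allows, equal 2.51 CPM. The microglial level was thus at least 114-fold higher, a bound that covers counting error only.

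Psmb9, the counterpart of Psmb6, was at 92.9 ± 24.1 CPM in microglia (33.2, 94.3 and 123) and 58.0 ± 42.1 CPM in the vascular class (0, 51.1 and 144), with means of at most 1.21 CPM elsewhere. Psmb10, the counterpart of Psmb7, was nearly equal in both, at 134 ± 29.5 CPM in microglia (99.7, 137 and 197) and 133 ± 48.4 CPM in the vascular class (55.1, 135 and 225). Unlike Psmb8 and Psmb9, it was also measured in the remaining classes, from 15.6 ± 12.6 CPM in the class labelled olig precursor to 47.6 ± 25.4 CPM in the class labelled oligodendrocyte. Astrocytes had 39.1 CPM (0 to 71.2 over 15 mice), neuroblasts 25.1 ± 20.5 CPM and neurons 23.9 ± 20.9 CPM, values that did not differ beyond their spread. In the vascular class the 6 microglial markers summed to 68.7 CPM against 32962 CPM in microglia, and Cx3cr1, the fractalkine receptor, was at 0.279 CPM against 1487 CPM, whereas Psmb8 reached 139 CPM against 286 CPM.

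**Figure D2:**
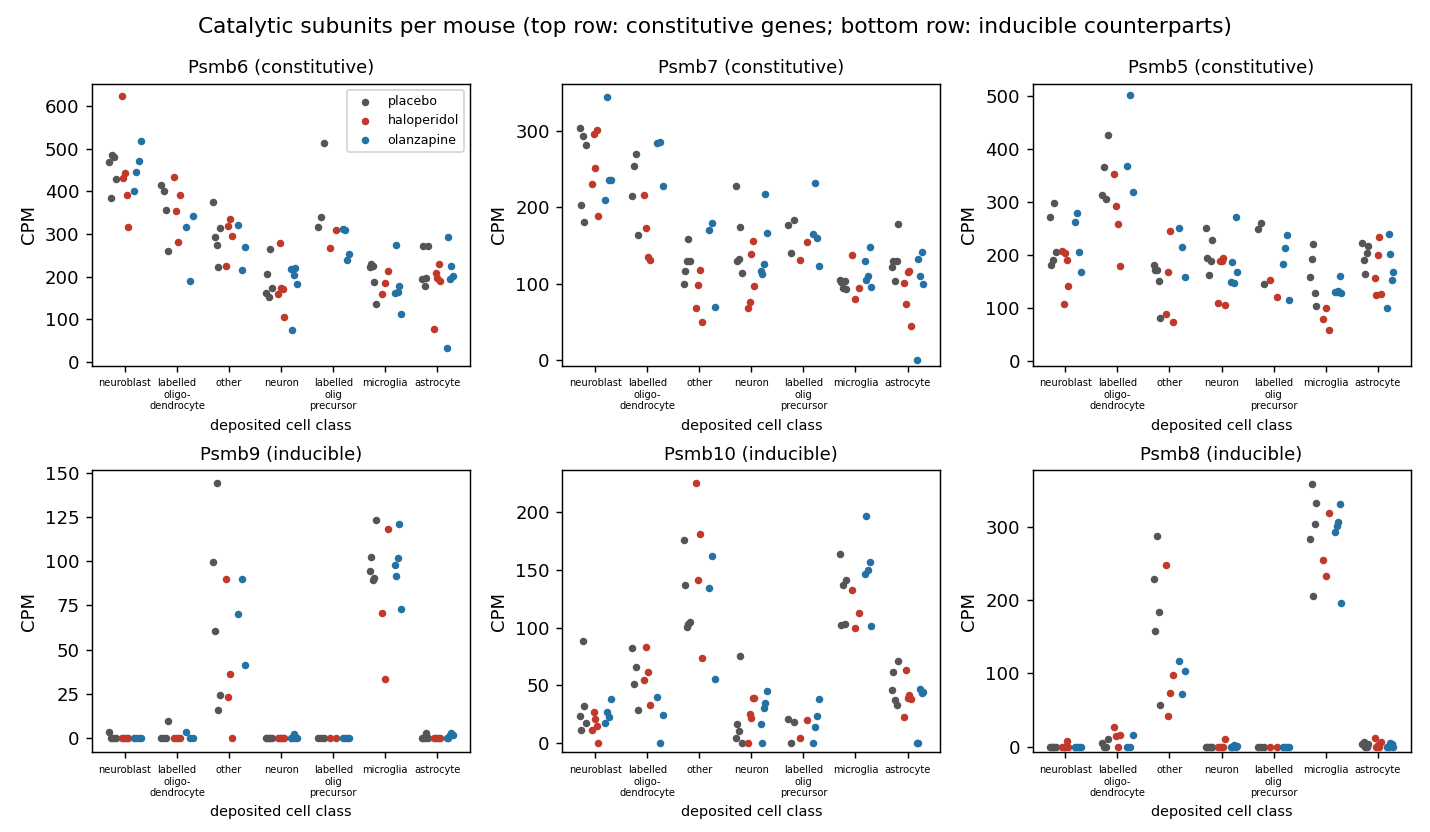
CPM (y axes, separate scales) of the 6 catalytic genes in each mouse (points) by class (x axis) and group (colour), constitutive genes in the upper row and their inducible counterparts in the lower row. Psmb8 and Psmb9 are near 0 outside microglia and the vascular class other. Psmb10 is highest in these same classes and lower but measured in the rest, and the constitutive genes are present in all classes.

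Set against the constitutive catalytic genes, the inducible genes made up 54.4% ± 4.82 (SD, n = 13) of the UMIs of the 6 catalytic genes in microglia. The lowest microglial mouse stood at 44.3%, the median at 54.2% and the highest at 64.2%. The vascular class followed at 35.8% ± 10.1 (n = 12; 26.04%, 32.4% and 59.5%). Astrocytes stood at 7.83% ± 3.63, the class labelled oligodendrocyte at 6.07% ± 2.81, neurons at 4.59% ± 4.05, neuroblasts at 2.65% ± 1.90 and the class labelled olig precursor at 2.41% ± 2.25. Neighbours in the order of the last 5 lay within their SDs. The share sums UMIs of different genes, whose capture by the 3' chemistry may differ, and is used only to compare classes.

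Psmb8 and Psmb9 lie beside each other in the MHC region of mouse chromosome 17 (GRCm38, GENCODE M21: Psmb9 from 34181987 to 34187764 on the minus strand, Psmb8 from 34197721 to 34201454 on the plus strand). Psmb9 overlaps Tap1, a peptide transporter gene on the opposite strand, and whether counting used the strand is not given in the sources used here. Tap1 was at 26.9 ± 12.0 CPM in microglia and 16.9 ± 11.7 CPM in the vascular class. Psmb10 lies apart, on chromosome 8 from 105935735 to 105938444, and Psmb5 on chromosome 14 from 54614119 to 54618022, both on the minus strand. Psmb5, Psmb6 and Psmb7 have named pseudogenes, so reads of these genes could have been divided or lost at the authors' counting step.

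The promoters of the 3 inducible genes and of Psmb5 are shown because these genes divide the classes. Each is the 250 bases before the RefSeq start (GRCm38.p6), written 5′ to 3′ on the gene's strand, with matches to the motifs searched in capitals. They cover chr17:34197945-34198194 for Psmb8, chr17:34187331-34187580 for Psmb9, chr8:105938393-105938642 for Psmb10 and chr14:54617996-54618245 for Psmb5. The RefSeq and GENCODE starts differ: the Psmb8 and Psmb9 windows lie wholly within the GENCODE gene spans given above, downstream of their starts, and those of Psmb10 and Psmb5 overlap the spans in part.
Psmb8: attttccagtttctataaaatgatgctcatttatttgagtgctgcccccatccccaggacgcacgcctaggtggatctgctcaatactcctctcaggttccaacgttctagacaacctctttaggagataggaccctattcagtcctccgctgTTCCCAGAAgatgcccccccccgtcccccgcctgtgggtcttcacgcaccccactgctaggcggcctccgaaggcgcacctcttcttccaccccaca
Psmb9: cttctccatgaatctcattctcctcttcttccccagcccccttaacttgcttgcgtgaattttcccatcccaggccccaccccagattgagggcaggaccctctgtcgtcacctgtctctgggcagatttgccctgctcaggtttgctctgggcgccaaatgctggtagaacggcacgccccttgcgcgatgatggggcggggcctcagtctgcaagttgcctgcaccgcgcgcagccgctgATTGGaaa
Psmb10: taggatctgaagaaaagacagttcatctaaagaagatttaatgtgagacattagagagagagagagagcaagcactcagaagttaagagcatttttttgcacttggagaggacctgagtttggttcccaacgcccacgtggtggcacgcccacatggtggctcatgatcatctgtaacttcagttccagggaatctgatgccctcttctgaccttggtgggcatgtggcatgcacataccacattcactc
Psmb5: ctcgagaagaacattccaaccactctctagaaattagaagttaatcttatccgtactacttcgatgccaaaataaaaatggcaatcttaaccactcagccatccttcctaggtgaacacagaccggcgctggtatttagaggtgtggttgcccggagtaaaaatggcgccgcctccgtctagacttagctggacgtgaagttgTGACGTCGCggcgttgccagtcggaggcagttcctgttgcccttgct

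Motifs were searched on both strands in the 31 members with a promoter entry and in all 27025 promoters of the table. The gamma-activated sequence TTCNNNGAA, bound by STAT factors, was found in Psmb8, from base -97 to -89 before the start, and in no other member with an entry; 7.18% of all promoters hold it. The antioxidant response core TGACNNNGC was found in 5 members, with Psmb5 (from -47 to -39) and Psmb6 among them, against 10.2% of all promoters. The core of the interferon-stimulated response element was found in 3 members (Psmb3, Psmd4 and Psmd9) and in 3.04% of all promoters, and the letters CCAAT in 12 members, with Psmb9 among them, and in 34.5% of all promoters. The motifs do not overlap in the promoters shown. A match describes letters in this window and is not a binding site.

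The ATPase genes, whose products form the ring that unfolds substrates, were highest in neuroblasts for Psmc1, Psmc4 and Psmc6, in the class labelled oligodendrocyte for Psmc2 and Psmc5, and in the vascular class for Psmc3. Psmc6 had the widest range: 289 ± 52.8 CPM in neuroblasts, 149 CPM in the class labelled oligodendrocyte and 79.2 CPM in astrocytes, 3.65 times below neuroblasts. Psmc3 was at 218 CPM in the vascular class, 202 CPM in neuroblasts and 80.6 ± 31.0 CPM in neurons. Psmc1 was lowest in microglia, at 66.0 ± 26.5 CPM.

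The non-ATPase genes, counted here with the 3 chaperone genes and otherwise encoding base and lid subunits of the regulatory particle, were led by neuroblasts or by the class labelled oligodendrocyte in 11 of 14 cases. Psmd14, the deubiquitinase that strips ubiquitin from substrates, was at 131 ± 36.9 CPM in neuroblasts, 115 ± 20.3 CPM in the class labelled oligodendrocyte and 45.0 to 70.1 CPM in the others. Psmd6, a lid subunit, was at 178 ± 42.8 CPM in the class labelled oligodendrocyte and 49.7 CPM in the class labelled olig precursor, 3.58 times lower. Psmd11, another lid subunit, was at 209 CPM in neuroblasts, 188 CPM in the class labelled oligodendrocyte and 62.1 ± 29.6 CPM in the class labelled olig precursor. Psmd3 was highest in neurons, at 130.9 ± 29.3 CPM, and at 54.7 to 82.5 CPM elsewhere. Psmd7, a lid subunit as well, was also highest in neurons, at 283 ± 52.4 CPM. The chaperone gene Psmd9 was highest in the class labelled olig precursor, at 77.1 ± 27.3 CPM, a value within 1 SD of 5 of the other classes.

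**Figure D3:**
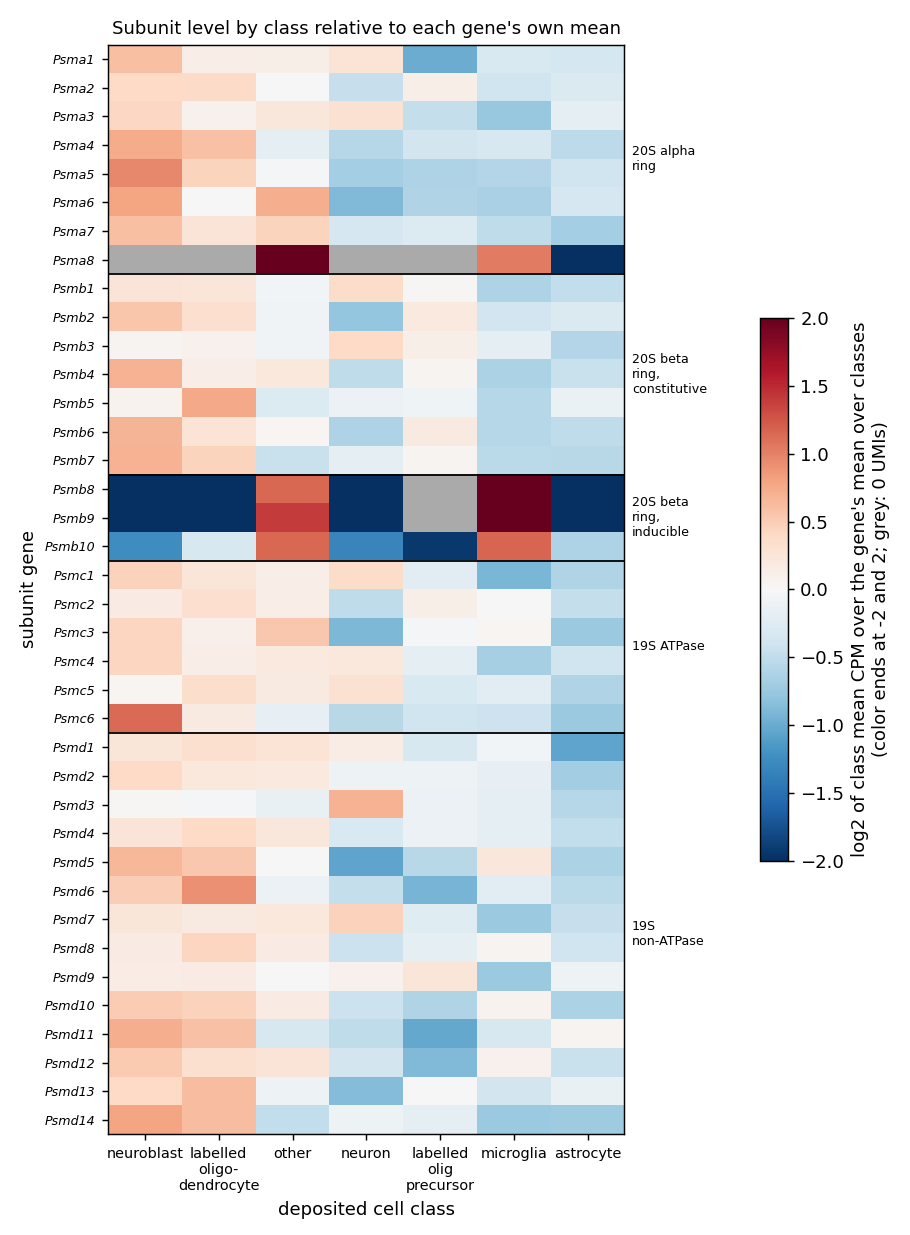
Mean CPM of each subunit gene (rows, by role) in each class (columns) as a log2 ratio to the gene's own mean over the 7 classes (grey for 0 UMIs). Neuroblasts lie above the own mean for 34 of 38 genes and the class labelled oligodendrocyte for 32, astrocytes for 1, and the inducible genes stand against this order in microglia and the vascular class.

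How far the members moved together was described over 89 sums per mouse and class with Pearson's r of log2(CPM + 1); the sums share mice, libraries and depth. Psma7 had the highest median r with the other members, at 0.50. Psmd3 had a median r of -0.00, Psmb8 of -0.10 and Psmb9 of -0.07, and Psmb10 stood between, at 0.12. Of 5723 other genes with a mean of at least 30 CPM, those most like Psmb8 included Ecscr, Adap2os, Gpsm3 and Trim47, at r of 0.91 to 0.92. Those most like Psmb9 included Adap2os, F11r, Ecscr and Trim47, at r of 0.92 to 0.94. Psmb10 was most like Ppp1r15a (r = 0.73), St3gal6, Klf6, Sipa1 and Klf2, and Psmb5 like Col9a3 (r = 0.60), 3632451O06Rik, Tceal3, Commd4 and Rlbp1.

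Other genes of the pathway differed in their order of classes. Psme1 and Psme2, which encode the interferon-inducible activator that caps the core, were at 193 ± 44.2 and 133 ± 45.1 CPM in microglia and at 172 ± 49.0 and 168 ± 33.7 CPM in the vascular class. Psme1 was also at 122 ± 54.1 CPM in neuroblasts and at 7.93 ± 6.43 CPM in the class labelled olig precursor. B2m, the light chain of MHC class I, was at 3424 ± 395 CPM in microglia, 1462 ± 334 CPM in the vascular class and 382 ± 66.0 CPM in the class labelled oligodendrocyte, and at most 126 CPM elsewhere. Tapbp, the tapasin gene, was at 233 ± 46.7 and 155 ± 28.9 CPM in microglia and the vascular class. Irf1, a transcription factor of the interferon response, was at 31.2 ± 15.6 and 46.5 ± 16.5 CPM in these classes and had no UMI in the class labelled olig precursor. Other genes of the antigen and interferon lists lay elsewhere. Calr, a chaperone of MHC class I assembly, was at 620.0 CPM in the class labelled oligodendrocyte, 597 CPM in neurons, 524 CPM in microglia and 252 CPM in the vascular class. The interferon-induced genes Ifitm3 and Isg15 were at 1448 and 192 CPM in the vascular class and at 14.3 and 22.1 CPM in microglia, and Irf8, a transcription factor of myeloid cells, was at 574 CPM in microglia and 0.975 CPM in the vascular class.

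Genes of assembly, delivery and control also differed in their highest class. Sem1, a small lid subunit outside the naming pattern, was at 680 ± 151 CPM in neuroblasts, 606 ± 75.3 CPM in the vascular class and 224 ± 49.8 CPM in astrocytes. Pomp, the maturation factor of the core, was highest in the vascular class, at 546 ± 116 CPM, and at 300 ± 39.1 CPM in microglia. Nfe2l1, the transcription factor that raises proteasome genes when proteasome activity falls short, was highest in neurons, at 222 ± 49.9 CPM, and at 28.9 to 105 CPM elsewhere. Its relative Nfe2l3 was at 66.5 ± 25.8 CPM in the class labelled olig precursor and at most 5.09 CPM in the other classes. Ubb, a polyubiquitin gene, was highest in neuroblasts, at 4657 ± 916 CPM. Vcp, the segregase that extracts ubiquitylated proteins, and Usp14, a deubiquitinase of the regulatory particle, were highest in neuroblasts as well, at 304 and 114 CPM.

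The drug comparisons ask whether haloperidol or olanzapine changed these genes in any class. No member passed the test in any class and comparison. With edgeR's quasi-likelihood F test on counts summed per mouse and class (Benjamini-Hochberg adjustment over all genes of a class, threshold 0.05), 0 of 195 tests were called for haloperidol against placebo, where 0.00518% of all 19314 tests were called. For olanzapine against placebo 0 of 226 were called, against 0% of 21991, and for haloperidol against olanzapine 0 of 195, against 0% of 19314. DESeq2 called 0 members in each comparison as well. Of the 38 members, 31 to 35 passed the filter on low counts in a class, and Psma8, Psmd5 and Psmd10 passed in none. Psmb8 and Psmb9 were tested only in microglia and the vascular class, and Psmb10 there and in astrocytes. The class labelled olig precursor had too few haloperidol mice, so it was tested only for olanzapine against placebo.

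At an unadjusted edgeR p under 0.05, haloperidol against placebo gave 7 of 195 tests of members, all lower. Of all tests, 3.65% passed in either direction and 1.8% were lower. Olanzapine against placebo gave 0 of 226, against 3.36%, and haloperidol against olanzapine 3 of 195, against 3.42%. Groups did not overlap between mice for 4 of 195 tests of members (1.83% of all tests), 5 of 226 (2.52%) and 4 of 195 (2.43%). These follow the same order of comparisons.

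The direction of the values was less even for haloperidol. Against placebo, 138 of 195 log2 fold changes were below 0, where 50.3% of all tests were. Against olanzapine, 137 of 195 were below 0, where 49.2% of all were. For olanzapine against placebo 119 of 226 were, where 51.2% of all were. The comparisons with placebo and with olanzapine share the haloperidol mice, both comparisons with placebo share the placebo mice, and the classes share mice, so the tests are not independent and no test was made of these counts.

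Against placebo, the lower values under haloperidol numbered 28 of 32 in astrocytes (median log2 fold change -0.11), where 50.4% of all genes were lower, and 26 of 31 in neurons (-0.23), where 50.3% were. They numbered 23 of 31 in neuroblasts (-0.13; 48.9% of all genes), 22 of 32 in the class labelled oligodendrocyte (-0.21; 49%) and 23 of 35 in microglia (-0.10; 51.7%). In the vascular class they numbered 16 of 34 (0.02; 51.1%). The median of all genes lay between -0.02 and 0.01 in each class. By role, 34 of 42 values of the constitutive beta ring were below 0, 6 of 7 of the inducible genes, 26 of 36 of the ATPase genes, 46 of 68 of the non-ATPase genes and 26 of 42 of the alpha ring. Of 32 members tested in at least 5 classes, 5 were below 0 in every class tested (4.67% of all such genes): Psma2, Psmc2, Psmc6, Psmd11 and Psmd14, named after their values were seen. For haloperidol against olanzapine these were 3 of 32 (Psmb7, Psmc2 and Psmd1; 5.86% of all genes), and for olanzapine against placebo 0 of 32 (3.42%). With the shared cells kept in placebo 5, the counts for haloperidol against placebo were 28 of 33, 27 of 32, 24 of 31, 22 of 32, 23 of 35 and 19 of 34, in the order of classes above.

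The summed levels of the groups overlapped in neurons, astrocytes and neuroblasts. In neurons they were 4471 ± 731 CPM under haloperidol, 4956 ± 650 CPM under placebo and 4582 ± 526 CPM under olanzapine (n = 5 each). In astrocytes they were 3614 ± 303, 4042 ± 377 and 3646 ± 775 CPM. In neuroblasts they were 6639 ± 847 (n = 5), 7160 ± 680 (n = 5) and 7525 ± 588 CPM (n = 4). Haloperidol 5 was the lowest haloperidol mouse in each of these classes, at 3679, 3256 and 5222 CPM, respectively. In microglia it was the highest, at 4217 CPM. With each mouse left out in turn, the counts of lower values for haloperidol against placebo changed. They ranged from 24 to 29 in neurons, 20 to 31 in astrocytes and 18 to 27 in neuroblasts, and no test was made of these counts. The median share of mitochondrial UMIs per mouse, a sign of RNA quality, was 3.15% ± 0.786 in haloperidol, 2.54% ± 0.362 in placebo and 2.96% ± 0.469 in olanzapine mice, and its part in these counts was not tested.

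**Figure D4:**
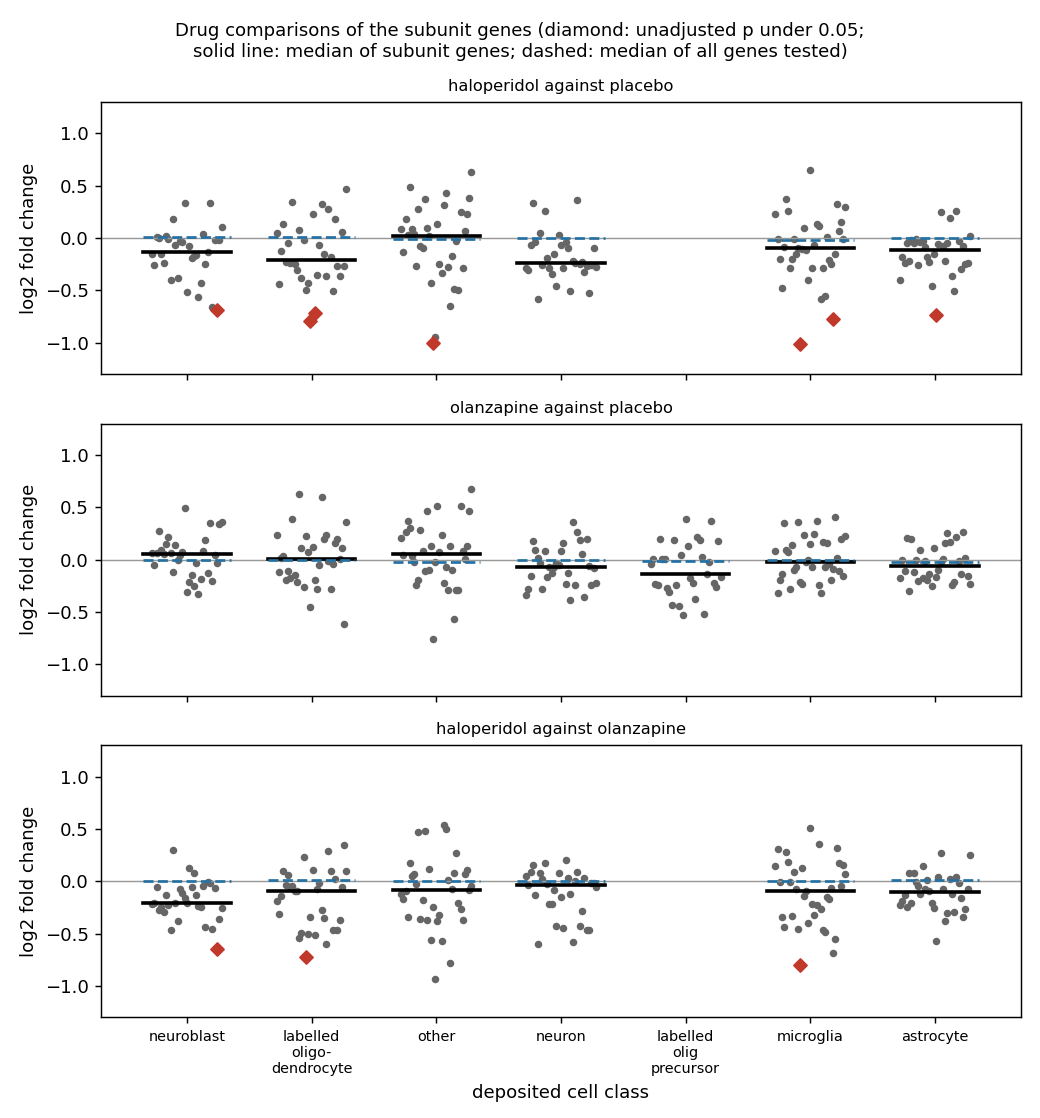
Log2 fold change (y axes) of each tested subunit gene (points; red diamonds at an unadjusted p under 0.05) by class (x axis) in the 3 comparisons (panels), with the median of the subunit genes (solid line) and of all genes tested (dashed line). The medians for haloperidol against placebo lie between -0.23 and 0.02, and none of the points passed the adjusted threshold.

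The smallest p belonged to Psmb5 in microglia. Its level was 80.3, 99.7 and 59.1 CPM in haloperidol 3, 4 and 5, from 17, 15 and 10 UMIs. In placebo 1 to 5 it was 159, 192, 221, 129 and 105 CPM, and in olanzapine 1 to 5 it was 130.1, 131, 133, 161 and 129 CPM. Every haloperidol mouse lay below every mouse of the other groups, and the other groups overlapped. The log2 fold change was -1.01 ± 0.28 (SE) against placebo (edgeR adjusted p = 0.797) and -0.80 ± 0.28 against olanzapine (adjusted p = 0.743), and olanzapine against placebo gave -0.21 ± 0.21 (adjusted p = 1.00). With the shared cells kept in placebo 5, haloperidol against placebo gave -1.09 (adjusted p = 0.268). Haloperidol 1 and 2 had under 10 microglia and did not enter. The microglial markers summed to 30148 ± 681 CPM under haloperidol and 34645 ± 4030 CPM under placebo, and their part in this difference was not tested.

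Its inducible counterpart showed no such gap. Psmb8 in microglia was at 269 ± 45.0 CPM under haloperidol (n = 3), 297 ± 58.6 CPM under placebo and 286 ± 51.9 CPM under olanzapine (n = 5 each), at a log2 fold change of -0.11 ± 0.21 for haloperidol against placebo (edgeR adjusted p = 0.956). The inducible share in microglia was 54.9% ± 5.00 under haloperidol, 53.4% ± 7.14 under placebo and 55.0% ± 2.09 under olanzapine. In the class labelled oligodendrocyte, where Psmb5 was highest, it was at 352, 292, 258 and 180 CPM in the haloperidol mice, 368, 501 and 318 CPM in the olanzapine mice and 312, 366, 306 and 426 CPM in the placebo mice. The log2 fold change against olanzapine there was -0.49 ± 0.25 (edgeR adjusted p = 0.980).

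Psmc2, an ATPase gene, gave the next values in 2 classes. In astrocytes it was at 11.2, 94.4, 67.6, 58.4 and 25.4 CPM in haloperidol 1 to 5 and at 137, 95.3, 74.9, 84.0 and 63.3 CPM in placebo 1 to 5, and the groups overlapped. The value of haloperidol 1 rests on 1 UMI. The log2 fold change was -0.74 ± 0.30 (edgeR adjusted p = 0.999). In the class labelled oligodendrocyte it was at 163, 104, 85.9 and 65.4 CPM under haloperidol and 225, 145, 168 and 135 CPM under placebo, also overlapping, at -0.80 ± 0.33 (edgeR adjusted p = 0.998). Over the 6 classes tested its log2 fold changes ran from -0.80 to -0.06.

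The other pairs at an unadjusted p under 0.05 overlapped between groups as well. Psmd6 in neuroblasts was at 92.2, 80.7, 95.5, 132.6 and 58.8 CPM under haloperidol and 159, 124, 118, 245 and 129 CPM under placebo (-0.69 ± 0.28, edgeR adjusted p = 1.00). Psmc4, an ATPase gene, was at 108, 125, 73.6 and 81.7 CPM under haloperidol and 184, 128, 226 and 106 CPM under placebo in the class labelled oligodendrocyte (-0.71 ± 0.32, adjusted p = 0.998). In microglia Psmd2, a subunit of the base, was at 70.8, 39.9 and 41.4 CPM under haloperidol. Under placebo it was at 99.3, 89.8, 116, 71.1 and 67.6 CPM (-0.77 ± 0.37, edgeR adjusted p = 0.839). The pair next in order had a value above 0: Psmc1 in microglia was at 61.4, 139.6 and 88.7 CPM under haloperidol and 38.5 to 73.6 CPM under placebo (0.66 ± 0.33, adjusted p = 0.839).

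Psmb8 in the vascular class ranged widely between mice. It was at 247, 42.3, 72.5 and 98.1 CPM in haloperidol 2 to 5, 117, 71.9 and 103 CPM in olanzapine 3 to 5, and 228, 157, 288, 183 and 56.5 CPM in placebo 1 to 5. Haloperidol 2 and placebo 5 lay against the rest of their groups, and the groups overlapped. The log2 fold change was -1.001 ± 0.47 for haloperidol (edgeR adjusted p = 0.995) and -0.75 ± 0.45 for olanzapine against placebo (adjusted p = 0.752). For haloperidol it was -1.53 without haloperidol 2 (adjusted p = 0.867) and -0.51 without haloperidol 3 (adjusted p = 0.927). The make-up of this class differed by group: 4 smooth muscle genes summed to 2963 ± 1464 CPM under placebo, 5564 ± 1492 CPM under haloperidol and 8219 ± 2373 CPM under olanzapine, and 5 endothelial genes to 9860 ± 2597, 8741 ± 1816 and 8461 ± 2426 CPM. Their part in the values of Psmb8, and of the other genes named below in this class, was not tested.

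**Figure D5:**
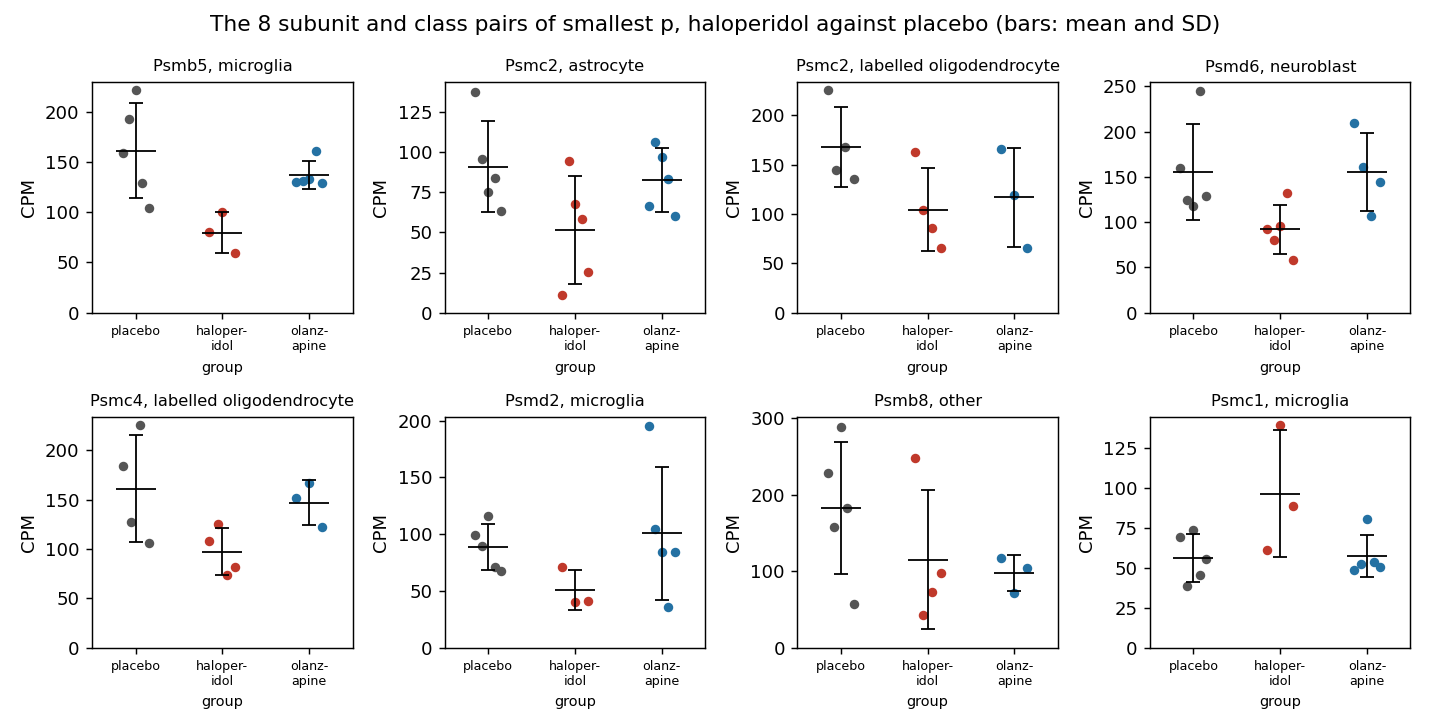
CPM per mouse (points) with mean and SD (bars) by group for the 8 gene and class pairs of smallest p, haloperidol against placebo. Only for Psmb5 in microglia do the haloperidol mice, at 59.1 to 99.7 CPM, lie apart from both other groups, and no pair passed the adjusted threshold.

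The drugs were set against each other by the same test. Psmb7 in the class labelled oligodendrocyte was at 217, 174, 135 and 131 CPM in haloperidol and 285, 286 and 228 CPM in olanzapine mice, which did not overlap (log2 fold change -0.72 ± 0.29, edgeR adjusted p = 0.945). The placebo mice, at 215, 255, 270 and 164 CPM, spanned both. Psmd6 in neuroblasts gave -0.65 ± 0.29 (adjusted p = 1.00). The remaining pairs of this comparison named by rule were Psmb5 in the class labelled oligodendrocyte, Psma6 in neurons, Psmd2 in microglia, Psmc3 in the vascular class and Psmc2 in astrocytes, at log2 fold changes of -0.69 to -0.49.

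For olanzapine against placebo the 8 pairs of smallest p ran in both directions. Psmb4, a structural beta subunit, was at 209, 262 and 122 CPM under olanzapine and 138, 162, 109 and 67.7 CPM under placebo in the class labelled oligodendrocyte (log2 fold change 0.63 ± 0.31, edgeR adjusted p = 0.997). Psmc1 was higher in value in the vascular class (178, 179.7 and 159 CPM against 87.5 to 146 CPM, 0.51 ± 0.27, adjusted p = 0.726) and in neuroblasts (0.49 ± 0.23, adjusted p = 1.00). Psmd12, a lid subunit, was at 87.1, 35.9 and 89.6 CPM against 111 to 127 CPM in the vascular class (-0.57 ± 0.29, adjusted p = 0.718). Among these 8, groups did not overlap for Psmc1 and Psmd12 in the vascular class and for Psmb6 in the class labelled olig precursor (-0.45 ± 0.26, adjusted p = 1.00). Psmd8, Psmb1 and Psmd1 in the class labelled oligodendrocyte made up the 8, at log2 fold changes of -0.61, 0.39 and 0.60.

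Of the 5 lists of related genes, none had a called gene in any comparison (edgeR). For haloperidol against placebo, the median over classes of the list medians was -0.12 for 55 tests of regulators and assembly factors, -0.06 for 59 tests of ubiquitin and delivery genes, -0.15 for 29 of antigen processing, -0.09 for 16 of transcriptional control and -0.36 for 11 of the interferon response. At an unadjusted edgeR p under 0.05 these lists held 1, 5, 0, 0 and 1 of those tests, a gene counting once per class, against the 3.65% of all tests. Among them, at log2 fold changes with no adjusted p under 0.05, Ubb had -0.44 in neuroblasts, Rps27a had 0.37 in microglia and 0.39 in the class labelled oligodendrocyte, and Psmg4, an assembly chaperone gene of the core, had 1.14 in microglia. The interferon response gene Ifit1 in the vascular class was at 30.2 ± 26.2 CPM under haloperidol (n = 4) and 82.5 ± 29.5 CPM under placebo (n = 5; -1.18 ± 0.48, adjusted p = 0.995).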

How the data were processed

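UMIs, whole numbers by gene and by cell, were deposited by the authors as 1 count table (15932 genes, 5581 cells) naming each cell's mouse, drug and class. The submitters' processing notes list Cell Ranger, Seurat and mm10, without versions; the strand setting is not given.

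No cell had under 200 genes; 23 cells above 20% mitochondrial UMIs were removed. Scrublet (scanpy 1.11.5, Python 3.11.15), run mouse by mouse, marked 82 doublets (1.48%), 38 of them among 128 cells in olanzapine 2. Barcodes shared by a pair of mice with at least 10 in common (2 of 105 pairs) were kept in the mouse with more UMIs.

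Sums per mouse and class needed at least 10 cells, and a comparison at least 3 mice in both groups. Runs that left single mice out did not keep this minimum of mice. For each class 1 model held all treatment groups (edgeR 4.0.16, R 4.3.3; filterByExpr; TMM; robust quasi-likelihood F test, two-sided; Benjamini-Hochberg). SE is the log2 fold change over the root of F. CPM uses TMM library sizes. Mice are numbered by order of deposit. The fits were tested on simulated data. Alternatives included DESeq2 1.42.0, other scaling and filters, and mice left out. Values per mouse rest on few UMIs for low genes, which limits their precision.

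Named pairs are the 8 of smallest unadjusted p per comparison, besides any called member (0 here). Members named by level are Psmb5 to Psmb10 and, per class, up to 3 that lay highest and lowest relative to their own mean (at least 50 CPM); others, such as class leaders, were named after values were seen. For likeness, 5 genes each were taken; some named items are not reported here. The members and lists were chosen with earlier results of these data known.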

Additional observations from a re-analysis of the deposited data

Results flagged for a closer look

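Groups of 4 to 10 mice were searched for a mouse whose gap to the nearest other exceeded the 95% critical value of Dixon's ratio. Of 75 groups examined, 10 held such a mouse; chance alone flags about 1 in 20 groups. Summed over the 38 subunit genes, olanzapine 1 was at 2294 CPM in astrocytes, against 3772 to 4199 CPM in the other olanzapine mice. This mouse had 70 cells and 215990 UMIs, the fewest of the 15, and its part in the value was not tested. Haloperidol 5 was at 5753 CPM in the class labelled oligodendrocyte, against 6045 to 6098 CPM.

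Among single genes, Psmb1 and Psmd1 in the class labelled oligodendrocyte were at 515 and 136 CPM in haloperidol 1, against 389 to 405 and 76.4 to 85.9 CPM. Those values of haloperidol 1 rest on 19 and 5 UMIs from 11 cells. In microglia, Psmb5 was at 161 CPM in olanzapine 4, against 129 to 133 CPM, and Psmc1 at 80.7 CPM in olanzapine 3, against 48.8 to 53.7 CPM. Psmc1 was at 190.4 CPM in the vascular class of haloperidol 4, against 98.1 to 112 CPM.

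The inducible share of catalytic UMIs was 8.33% in neuroblasts of placebo 3 (6 inducible UMIs), against 1.45% to 3.23%. It was 10.7% in neurons of placebo 4 (16 inducible UMIs), against 0% to 2.97%. In the vascular class it was 59.5% in haloperidol 2 (25 inducible and 17 constitutive UMIs from 12 cells), against 26.04% to 29.4%.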

How the results depend on the processing

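The count of called members stayed at 0 for haloperidol against placebo, olanzapine against placebo and haloperidol against olanzapine under each alternative run: DESeq2, RLE or no scaling, no low-count filter, at least 20 cells per mouse, doublets kept, fits of 2 groups, adjustment over all classes, all cells of a mouse summed, without the 4 mice with fewest cells, without each mouse in turn (0 to 0), and with the 211 shared cells kept in placebo 5, an alternative chosen after seeing the data. The named pairs kept their direction throughout; Psmb5 in microglia ranged from -1.17 to -0.84 for haloperidol against placebo, with adjusted p of 0.268 to 1.00. Runs without a haloperidol mouse that had entered in microglia held fewer than 3 haloperidol mice there. Summed levels per class moved by less than 1 SD. Counts of members with lower values under haloperidol than placebo ranged over mice left out from 20 to 31 in astrocytes, 18 to 23 in microglia, 24 to 29 in neurons, 18 to 27 in neuroblasts, 19 to 24 in the class labelled oligodendrocyte and 15 to 23 in the vascular class. Of such counts in all 3 comparisons, 3 moved by over 1.5 times as plain counts. In neurons with no filter it was 30 of 37, from 19 of 31 (haloperidol against olanzapine). For olanzapine against placebo it was 7 of 34 in the vascular class without olanzapine 5, from 14 of 34. In neurons without placebo 4 it was 13 of 32, from 20 of 31. The vascular class without olanzapine 5 held only olanzapine 3 and 4, below the minimum of 3 mice. Over all genes, calls for the 3 comparisons were 1, 0 and 0; DESeq2 gave 3, 7 and 0, no filter 7, 47 and 4, at least 20 cells 0, 5 and 0, fits of 2 groups 2, 6 and 0, shared cells kept 2, 11 and 0, adjustment over all classes or all cells summed 0, 0 and 0, without the 4 mice 2, 5 and 0, and without single mice 0 to 2, 0 to 5 and 0 to 1. No paired analysis was possible because the labels number each mouse once across the groups. Depth limits the low members: 3 counts over a class equal 0.706 CPM in astrocytes and 2.51 CPM in the class labelled olig precursor.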
